A study of Mus musculus with 2 samples.

Results

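DNase-seq peaks that lay over protein-coding exons, away from annotated start sites, were examined in the adult mouse hippocampus. A site was a peak of replicate 1 that overlapped a peak of replicate 2 by at least 1 bp, lay more than 1000 bp from the start of every transcript in the GENCODE M21 basic annotation, and had at least 50% of its length in coding segments (CDS) of protein-coding transcripts. These criteria gave 2035 coding-exon sites of 144270 peaks in replicate 1, or 2.61% of the 77974 shared distal peaks. The other 75939 shared distal peaks served as the comparison. Both samples were hippocampus of male B6CASTF1/J mice (an F1 cross of C57BL/6J with CAST/EiJ) aged 8 to 10 months, and each was a pool of 2 biosamples. The tissue label names a layer of the hippocampus without saying which. The 2 replicates formed a single group with no treatment or control and carried the same donor label, so the spread between them may be technical and no comparison of conditions could be made.

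DNase I is an endonuclease that cuts chromatin where nucleosomes and bound proteins leave the DNA exposed, so clusters of cuts mark promoters, enhancers and insulators. Short stretches inside a peak that stay uncut are called footprints and mark candidate contacts of DNA-binding proteins. Most such elements lie in introns and between genes, but coding exons can also hold accessible DNA, where the same bases then specify amino acids and may be contacted by transcription factors.

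Sequences of 7 sites are shown because each carries a motif that is taken up in the results. They are the 3 tallest sites that lay wholly in CDS and in no UTR, were at most 300 bp long and had no further copy in the genome, followed by 2 further tall sites with a CTCF motif and by a site for each of 2 other motifs. All are from the GRCm38 (mm10) reference, which is C57BL/6J, and are written 5′ to 3′ on the coding strand of the gene. The capitals mark 1 motif match. CTCF is an insulator protein, and its site is known to lie in loop anchors. Notch4 encodes a Notch receptor best known from blood vessels, and its site in the last coding segment, chr17:34587481-34587740 on the plus strand, held the GC box of SP and KLF factors (GGGGCGGGG).
Notch4: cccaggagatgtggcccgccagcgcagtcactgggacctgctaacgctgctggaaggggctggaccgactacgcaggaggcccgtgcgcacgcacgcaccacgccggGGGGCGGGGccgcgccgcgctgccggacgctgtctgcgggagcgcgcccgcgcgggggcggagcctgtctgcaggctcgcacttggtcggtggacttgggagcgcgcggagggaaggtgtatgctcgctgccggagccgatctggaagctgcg
Synpo2l encodes an actin-associated protein of muscle. Its site in the last coding segment, chr14:20661021-20661280 on the minus strand, held a CTCF match.
Synpo2l: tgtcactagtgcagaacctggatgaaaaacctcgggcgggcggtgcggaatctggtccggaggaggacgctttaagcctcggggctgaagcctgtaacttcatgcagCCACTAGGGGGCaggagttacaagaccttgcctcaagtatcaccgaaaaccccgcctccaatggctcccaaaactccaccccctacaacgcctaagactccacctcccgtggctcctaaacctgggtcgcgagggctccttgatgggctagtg
Spi1 encodes a transcription factor of myeloid cells and microglia. Its last coding segment, which specifies part of the DNA-binding domain, held a YY1 match (AANATGGCG) in the site at chr2:91115161-91115360 on the plus strand.
Spi1: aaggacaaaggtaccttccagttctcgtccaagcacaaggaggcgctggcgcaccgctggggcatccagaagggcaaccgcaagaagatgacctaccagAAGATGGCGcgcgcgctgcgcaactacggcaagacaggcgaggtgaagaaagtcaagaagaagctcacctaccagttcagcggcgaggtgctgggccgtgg

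The next pair holds CTCF matches in 2 further coding exons. Zfp219 encodes a zinc finger protein, and its site was at chr14:52008921-52009160 on the minus strand. Gpr153 encodes an orphan G protein-coupled receptor, and its site was at chr4:152283281-152283520 on the plus strand.
Zfp219: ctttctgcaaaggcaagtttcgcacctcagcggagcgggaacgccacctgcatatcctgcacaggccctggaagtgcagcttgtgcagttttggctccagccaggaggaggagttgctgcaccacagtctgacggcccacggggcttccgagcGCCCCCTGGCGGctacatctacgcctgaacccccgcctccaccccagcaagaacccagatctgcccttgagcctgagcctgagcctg
Gpr153: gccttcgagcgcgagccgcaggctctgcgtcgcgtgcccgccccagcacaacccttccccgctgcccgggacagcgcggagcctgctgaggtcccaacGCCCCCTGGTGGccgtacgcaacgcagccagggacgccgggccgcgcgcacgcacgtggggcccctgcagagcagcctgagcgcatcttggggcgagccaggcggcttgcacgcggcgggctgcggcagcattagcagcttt
All 5 of these sites lay wholly in CDS, so the letters in capitals are also part of codons. Each of the 3 CTCF matches was covered over at least 50% of its bases by a footprint in both replicates. The last pair shows a motif that was rarer and a motif that was more frequent in coding-exon sites than elsewhere. Lgsn, a lens gene, held the homeodomain core TAATTA in its last coding segment (chr1:31203841-31204080, plus strand). Rasip1, which is needed for the lumen of blood vessels, held the EGR motif GCGTGGGCG in coding segment 2 of 11 (chr7:45628761-45629020, plus strand).
Lgsn: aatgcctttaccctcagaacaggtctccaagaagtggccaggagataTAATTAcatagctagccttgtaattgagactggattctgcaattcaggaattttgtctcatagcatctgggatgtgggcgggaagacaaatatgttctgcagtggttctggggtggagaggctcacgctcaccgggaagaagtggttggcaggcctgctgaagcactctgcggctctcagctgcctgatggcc
Rasip1: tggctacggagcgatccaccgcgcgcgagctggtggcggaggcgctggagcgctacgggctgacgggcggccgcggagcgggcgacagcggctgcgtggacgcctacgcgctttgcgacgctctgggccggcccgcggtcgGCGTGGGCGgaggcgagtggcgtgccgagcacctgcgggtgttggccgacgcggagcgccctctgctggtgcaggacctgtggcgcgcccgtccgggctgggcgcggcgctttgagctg

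The coding-exon sites were about as accessible as other distal sites. Peak height is the authors' deposited value per peak, and its scale was not given in the sources used here. The median height of the coding-exon sites was 0.761 in replicate 1 and 0.678 in replicate 2 (mean 0.720 ± 0.0589, SD, n = 2), against 0.755 and 0.659 (0.707 ± 0.0680) for the other shared distal sites. The log2 ratio of the medians was 0.01 in replicate 1 and 0.04 in replicate 2. This difference was smaller than that between the replicates, and over 20 chromosomes the coding-exon median was the higher in both replicates on 7 and the lower in both on 7. The 1758 distal peaks with some, but less than 50%, of their length in CDS had medians of 0.935 and 0.827. Peaks with at least 50% in UTR had 0.906 and 0.801. Other peaks within a transcript, mostly in introns or noncoding exons, had 0.794 and 0.684. These classes were all above the coding-exon sites in both replicates, while intergenic or unclassed peaks were below them (0.696 and 0.613). The sites ranged from 0.0853 to 11.5 in replicate 1 and from 0.149 to 8.78 in replicate 2. A mean height above 2 was reached by 166 sites (8.16%, against 9.09% of other distal sites). Sites were higher in replicate 1 in 1336 cases (65.7%), close to the background of 66.1% among the other distal sites.

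**Figure D1:**
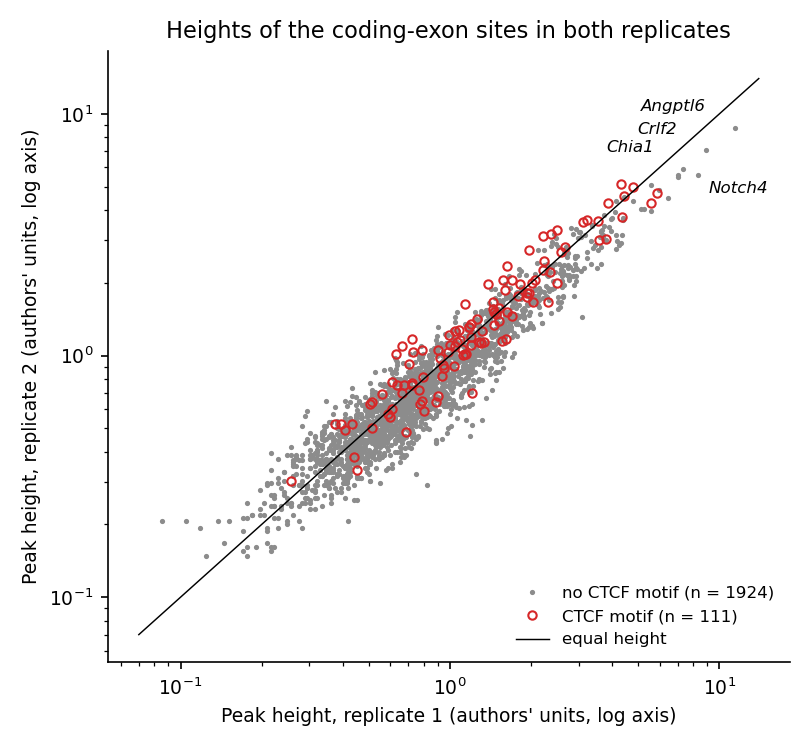
Deposited height of each of the 2035 coding-exon sites in replicate 1 (x axis) and of its best-overlapping peak in replicate 2 (y axis), both on log axes, with the 111 sites that hold a CTCF motif as open red circles and the line of equal height in black. Heights span 0.0853 to 11.5 in replicate 1, with Angptl6, Crlf2, Notch4 and Chia1 at the top, and the CTCF sites lie mostly in the upper part of the range (medians 1.20 and 1.18).

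Across sites the heights of the 2 replicates followed each other, with a Spearman coefficient of 0.924 over the 2035 sites (0.927 over the other distal sites), described here without a test since sites of a sample share its library. After scaling to the median of all shared pairs, 2023 sites (99.4%) lay within 2-fold, about the share among the other distal sites (99.3%). The share of coding-exon peaks found in the other replicate was below that of other distal peaks. Of 3335 coding-exon peaks in replicate 1, 61.0% overlapped a peak of replicate 2, against 69.8% of the other distal peaks, and of 2771 in replicate 2, 74.6% overlapped a peak of replicate 1, against 83.5%. The unshared coding-exon peaks were low, with a median of 0.407 in replicate 1 and 0.381 in replicate 2. Both shorter peak lists, which the authors' false discovery rate limits to 0.001, held 993 of the sites (48.8%, against 56.9% of other distal sites), and 570 were in neither.

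The tallest coding-exon site lay in Angptl6, which encodes a secreted angiopoietin-like protein. It covered 400 bp of the first coding segment (chr9:20878141-20878540), 1187 bp from the nearest start site, and had heights of 11.5 and 8.78 in replicates 1 and 2. The site in Crlf2, the receptor chain for thymic stromal lymphopoietin, had 8.93 and 7.06. The Notch4 site printed above had 8.35 and 5.605, and that in the last coding segment of Chia1, a chitinase of stomach and lung, had 7.34 and 5.91. In all 4 the higher value was that of replicate 1. The next tallest sites lay in Fbxl22, an F-box gene (7.003 and 5.57), and in Spaca6, a sperm gene needed for fertilisation (7.04 and 5.46). They were followed by 1700008O03Rik, Zfp771, Ankrd24, Synpo2l, Atn1 and Gdf15, with means from 5.47 ± 1.39 down to 4.87 ± 0.137 (SD, n = 2). Among these 12 tallest sites 7 lay in the last coding segment of the gene (23.7% of the sites placed in 1 transcript per gene). A CpG observed/expected ratio above 0.6 was found in 10 (31.0% of all sites), and 5 lay within 1000 bp of a start site of the comprehensive annotation (20.1% of all sites). All 12 held a footprint in both replicates, as did 99.4% of the 166 sites with a mean height above 2. Of these 12 genes 6 (Angptl6, Notch4, Chia1, Spaca6, Synpo2l and Gdf15) had no peak in either replicate within 1000 bp of a protein-coding start site. This held for the genes of 346 of all 2035 sites.

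Where in the gene the sites lay was read from 1 transcript per gene, which placed 2000 of the 2035. Internal coding segments held 1235 sites, last segments 473, first segments 138 and genes with a single coding segment 154. Per Mb of CDS more than 1000 bp from start sites, single segments held 114, first segments 112, last segments 101 and internal segments 56.3 sites, against 68.4 for all. Last segments thus held 23.7% of the sites and 16.1% of the eligible CDS bases. The difference held for last segments shorter than 500 bp (109 per Mb, against 53.2 for internal segments under 500 bp), while among segments of at least 500 bp it was smaller (93.6 against 78.0 per Mb).

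Long coding segments held a larger share of the sites than of the coding bases. Segments of at least 500 bp were 4.14% of all eligible segments and 24.7% of their bases, and they held 681 sites (34.1%). The density rose from 13.8 sites per Mb in segments up to 100 bp to 60.1 at over 100 to 200 bp and 106 at over 300 to 500 bp, and was 77.9 above 2000 bp. It was 87.3 at over 200 to 300 bp and 94.3 for all segments of at least 500 bp, so the surplus of long segments was mainly against those up to 200 bp. The criterion of 50% CDS bears on these, since a segment of 100 bp or less cannot fill 50% of a peak of the median length of 220 bp (lower quartile 177 bp). Segments of over 100 to 200 bp can do so only where the peak lies well over them. The share of this criterion in the difference was not tested. Heights varied little along this axis, with medians of 0.781 and 0.697 at over 100 to 200 bp and 0.656 and 0.620 above 2000 bp. Sites above 2000 bp had the fewest CTCF motifs (1.95%).

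**Figure D2:**
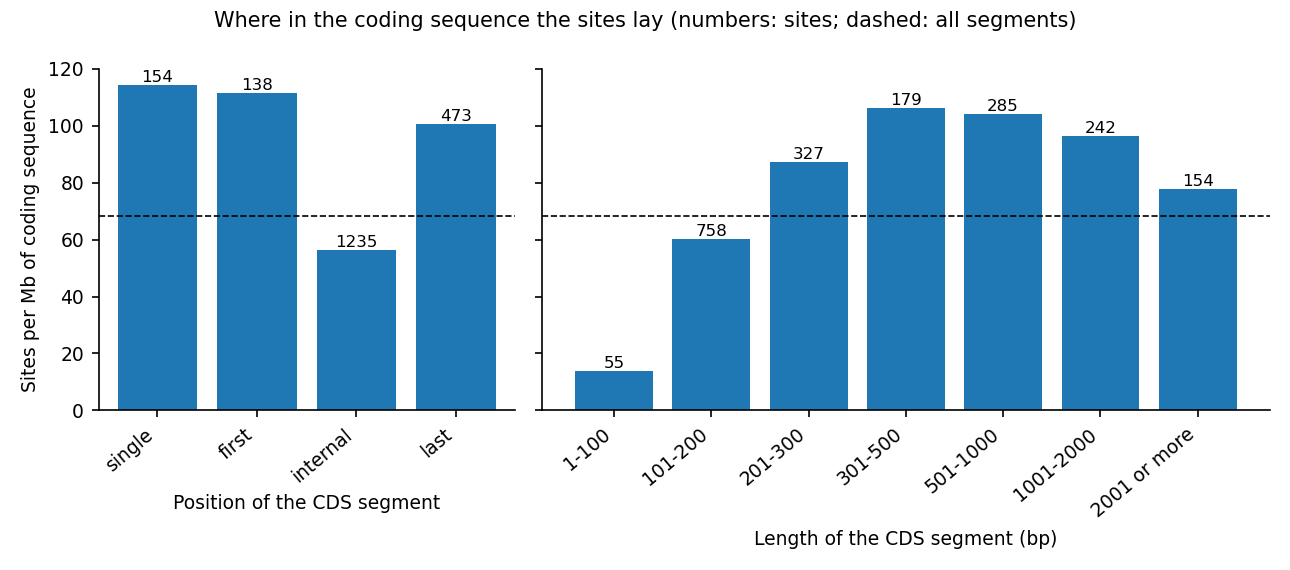
Coding-exon sites per Mb of eligible coding sequence by position of the coding segment in the gene (left) and by its length in bp (right), with the number of sites above each bar and all segments as the dashed line at 68.4. Single, first and last segments stand at 101 to 114 per Mb and internal segments at 56.3, and by length the bars rise from 13.8 to 106 at over 300 to 500 bp.

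Most sites reached past an exon boundary. Of the 2000 placed sites, 763 held a splice acceptor and 639 a donor, 287 held both, and 885 held neither. Sites with a junction had medians of 0.807 and 0.723, and those without 0.696 and 0.639. The junction sites held a CTCF motif in 6.55% and a CpG ratio above 0.6 in 23.1%, against 4.07% and 40.8% of those with no junction. In 1192 cases the gene had several coding transcripts in the basic set, and in 884 of these (74.2%) every one of them had coding sequence in the site.

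At splice acceptors the share of bases in footprints was higher on the exon side than on the intron side in both replicates. Of the bases 1 to 20 inside the exon, 16.8% ± 0.348 (SD, n = 2) lay in a footprint, against 10.0% ± 1.04 of the 20 intron bases next to the acceptor, where the pyrimidine tract lies. By replicate the values were 16.6% and 17.05% against 9.30% and 10.8%. At donors the corresponding values were 15.1% ± 1.54 and 12.9% ± 1.82. There too the exon side was the higher in each replicate (14.05% against 11.6% in replicate 1 and 16.2% against 14.2% in replicate 2), by less than at acceptors. Bases 21 to 60 inside the exon were at 19.4% ± 0.719 from acceptors and 18.8% ± 0.430 from donors, against 10.97% ± 1.47 and 12.2% ± 0.0738 for intron bases 21 to 60. By the criterion of 50% CDS the intron bases are the smaller part of a site and lie nearer its edge, and the share of this in the difference was not tested.

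**Figure D3:**
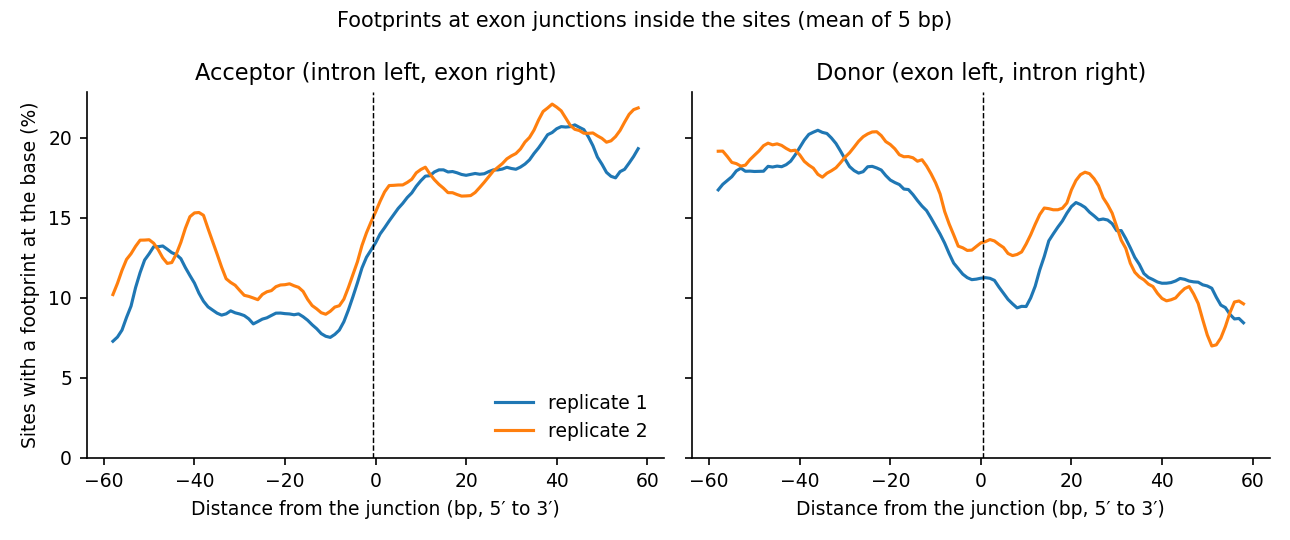
Share of coding-exon sites with a footprint at each base (y axis, %, mean of 5 bp) against distance from the splice acceptor (left) or donor (right) in bp along the gene, replicate 1 in blue and replicate 2 in orange, dashed line at the junction. In both replicates the share rises from the intron to the exon at acceptors (10.0% against 16.8% over 20 bp), and at donors it dips around the junction.

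Over whole sites, the share with a footprint was slightly below that of the other distal sites. At least 1 footprint midpoint was found in 85.0% of the sites in replicate 1 and 85.2% in replicate 2, against 88.0% and 87.1% of the other distal sites. In both replicates a footprint was present in 1551 sites (76.2%, against a background of 79.6%), and in 124 in neither. The gap depended on height. In the lowest decile of height, with deciles set on the coding-exon and other distal sites together, 39.9% of the coding-exon sites had a footprint in replicate 1 and 34.4% in replicate 2, against 47.1% and 45.0%. In the highest decile nearly all sites of both kinds held 1 (99.5% and 100% against 99.9% and 99.9%). There the number of footprints per site was larger in coding-exon sites, with means of 4.22 and 4.26 in replicates 1 and 2, against 3.75 and 3.79 elsewhere. Over all heights, footprints per 100 bp were fewer in coding-exon sites, which were longer (median 220 bp against 200 bp in replicate 1), at 1.03 and 1.04 against 1.07 and 1.12. The sites held 4763 footprints in replicate 1 and 4897 in replicate 2, with a median length of 9 bp (10 bp elsewhere), and 51.0% and 50.6% of them overlapped a footprint of the other replicate (52.9% and 53.1% elsewhere). Footprint bases were more GC-rich than the sites (64.4% and 64.7% against 57.8% in each replicate), as they were in the other distal sites (57.4% and 57.6% against 50.3% and 50.5%).

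The site with the most footprints found in both replicates was in Kank3, an ankyrin repeat gene of blood vessels, with 10 over 500 bp of coding segment 2 of 10. Its heights were 4.14 and 3.14. This Kank3 site lay 47 bp from a start site of the comprehensive annotation, and 363 of its 500 bp are also annotated as UTR. Angptl6, Fbxl22 and Lactbl1 each held 8 such footprints. The Kank3, Angptl6, Fbxl22 and Lactbl1 sites were 70.8% to 73.0% GC and had CpG ratios from 1.02 to 1.24, so all 4 stood far above the median of the sites in both measures. At the other end, the tallest Irs1 site, in the single coding exon of this insulin receptor substrate, had heights of 0.853 and 0.788 over 400 bp and no footprint in either replicate.

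CpG content was higher in the coding-exon sites than in the other distal sites, in the medians of both replicates and on each of 20 chromosomes in replicate 1. The CpG observed/expected ratio compares the number of CG dinucleotides with that given by the base composition. Its median was 0.452 in replicate 1 and 0.451 in replicate 2, against 0.245 and 0.246 in the other distal sites. Median GC content was 56.9% ± 0.0483 (SD, n = 2) against 50%. Sequence values of replicate 2 were read from its peaks at the same sites. The SDs of GC content and of the motif shares below therefore reflect shifted peak edges and not independent choices of sites. With sites taken from each replicate alone, the median CpG ratio was 0.434 in replicate 1 and 0.454 in replicate 2. A CTCF motif was then in 3.75% and 4.66%. Coding sequence outside peaks lay between the coding-exon and the other distal sites. In 25068 windows of 200 bp at the centres of coding segments of at least 200 bp, more than 1000 bp from start sites and outside every peak of both replicates, the median ratio was 0.373 and GC content 53.0%. A ratio above 0.6, a customary limit for CpG islands, was reached by 630 sites (31.0%), by 15.8% of the closed coding windows and by 6.74% of the other distal sites. The 630 sites had medians of 0.856 and 0.801, and the other 1405 had 0.722 and 0.646. By mean height the share above 0.6 was 26.0% up to 0.5, 26.9% from 0.5 to 1, 38.2% from 1 to 2 and 48.2% above 2.

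**Figure D4:**
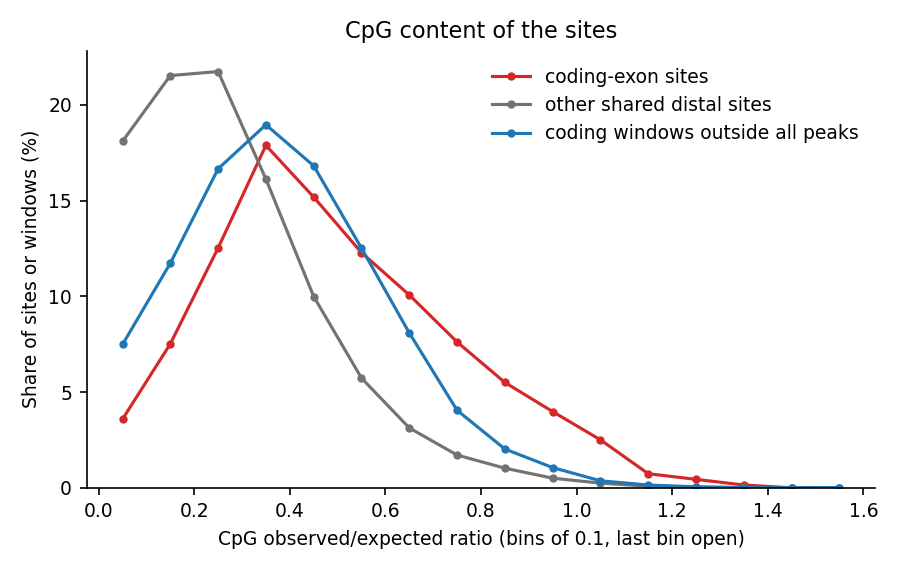
Share (y axis, %) of the 2035 coding-exon sites, of the 75939 other shared distal sites and of the 25068 coding windows outside all peaks in each bin of 0.1 of the CpG observed/expected ratio (x axis). The coding-exon curve lies to the right of both others, with 31.0% of sites above 0.6 against 15.8% of the closed coding windows and 6.74% of the other distal sites.

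The GC surplus lay at every codon position. In 1502 genes with at least 20 codons inside a site and 100 outside, GC at the third position, where most changes leave the amino acid as it is, was 66.2% inside the sites and 57.7% in the rest of the same genes. At the first position it was 61.7% against 56.3%, and at the second, where nearly every change alters the amino acid, 47.4% against 42.6%. The value inside the site was the higher in 1053 genes (70.1%) for the third position, 1036 for the first and 933 for the second. The median difference was 4.88 percentage points at the third, 4.05 at the first and 2.79 at the second position.

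CTCF motifs were slightly less frequent than in other distal sites and many times more frequent than in closed coding windows. Motif matches were sought on both strands in 200 bp at the midpoint of each site. A CTCF match was present in 111 sites in replicate 1 (5.45%) and 116 in replicate 2 (5.70%), a mean of 5.58% ± 0.174, against a background of 6.8% of the other distal sites and 0.168% of the closed coding windows. The share rose with height, from 1.38% of sites up to a mean height of 0.5 to 14.5% of those above 2. The 111 sites had medians of 1.20 and 1.18, against 0.748 and 0.665 without the motif. Of 112 matches 96 lay wholly in CDS, with 47 on the strand of the gene and 63 on the opposite strand among those placed in a gene. A footprint covered at least 50% of the motif in 90.1% of the sites in each replicate (90.7% and 92.1% elsewhere), and in both replicates in 97 of 111.

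Synpo2l, shown above, was the tallest of the CTCF sites with heights of 5.87 and 4.73. Next were Atn1, a transcriptional corepressor gene (5.58 and 4.27), and Gdf15, a stress-induced cytokine (4.78 and 4.97). Gipr, the receptor for an incretin hormone, had 4.33 and 5.13, and Cacna1a, the pore subunit of a presynaptic calcium channel, had 4.41 and 4.56. Of these 5 sites, 3 were higher in replicate 2, the opposite of most sites. The Cacna1a site lay in the last coding segment, 47 of 47 (chr8:84639421-84639760), and all 7 of its footprints in replicate 1 were found in replicate 2. It lay 430 bp from a start site of the comprehensive annotation. A CTCF site also occurred in Dscam, an adhesion gene of the axon guidance list (2.31 and 1.66), with the motif in a footprint in both replicates.

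Motifs rich in CG were more frequent in coding-exon sites than in other distal sites, and AT-rich motifs less frequent. EGR (GCGTGGGCG) matched 0.835% of the sites in each replicate, against 0.153% of other distal sites and 0.112% of closed coding windows. NRF1 (GCGCATGCG), bound by a factor of housekeeping promoters, matched 0.565% ± 0.0347 against 0.244%. The 12 sites with NRF1 in replicate 1 had medians of 3.01 and 2.55 and included Angptl6, Zfp771, Ankrd24 and Gdf15 of the 12 tallest. SP/KLF (GGGGCGGGG) matched 1.38% against 0.971%, and ETS (CCGGAAGT) 0.688% against 0.259%, though the closed coding windows reached 0.654% for ETS. The E-box of proneural factors (CAGATGG), which Neurod proteins bind in hippocampal neurons, matched 15.9% ± 0.174 of the sites, 17.3% of the other distal sites and 5.54% of the closed windows.

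AP-1 (TGANTCA), the motif of the Fos and Jun factors, matched 5.65% ± 0.139 of the coding-exon sites against 11.01% elsewhere and 3.91% of closed coding windows. The homeodomain core (TAATTA) matched 1.03% ± 0.139 against 4.69%, and MEF2, named here without its letters, matched 1 site against 0.601%. For TAATTA and MEF2 the closed coding windows were also low, at 1.33% and 0.0838%. RFX (GTTGCCATG) and CRE (TGACGTCA) were at 1.20% and 0.344%, against 1.26% and 0.360% elsewhere. YY1 (AANATGGCG) matched 0.541% against 0.367%, and ZFX (AGGCCTNG) 4.74% against 3.89%, while no coding-exon site matched REST (0.0257% elsewhere). In the closed coding windows YY1 was at 0.403% and ZFX at 4.54%, which is close to the coding-exon share of ZFX. A match describes letters only and says nothing of which protein was bound.

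Some sites lay near starts of transcripts outside the basic annotation. Within 1000 bp of a start site of the comprehensive GENCODE M21 set were 409 sites (20.1%, against 4.15% of other distal sites). Their medians were 0.833 and 0.749, and those of the 1626 others 0.742 and 0.665. Among the tallest, Spaca6, Ankrd24 and Atn1 overlapped such a start. Distance to the basic start sites was also shorter than elsewhere, with a median of 7984 bp against 18263 bp, and 319 sites (15.7%, against 6.16%) lay up to 2000 bp away. The next shared peak was 3400 bp away at the median (5100 bp elsewhere). The farthest sites were in Nol4 (319476 bp from a start), the developmental factor gene Sox6 (317494 bp) and the heparan sulfate polymerase gene Ext1 (277391 bp).

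The sites fell in 1706 protein-coding genes. Of the 19548 protein-coding genes with CDS more than 1000 bp from start sites, 8.72% held at least 1 site. A single site was found in 1458 of the genes, 2 in 208, 3 in 26, 4 in 6 and more in 8. A peak near a protein-coding start was present in both replicates for 1333 of these genes (78.1%), against 66.4% of the eligible genes without a site. The share of genes with a site rose with the length of eligible CDS, from 1.38% in the shortest decile to 24.3% in the longest. The gene lists below were formed by symbol and are therefore also given as sites per 100 kb of eligible CDS, which over all genes was 6.96.

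Immediate early genes, which neuronal activity induces, held a site in 8 of 31 genes (25.8%, and 30.6 sites per 100 kb). With 9 sites in only 29.4 kb of eligible CDS, this density rests on few sites. Jun, a subunit of AP-1, had the tallest, with 2.32 and 2.12 in its single coding exon, and Klf4 followed with 1.04 and 1.09 and a CTCF match. A site in Egr3 had 0.742 and 0.781, with 6 footprints in each replicate. The sites of Egr1, Egr4, Btg2, Dusp6 and Nptx2 lay lower, between 0.458 and 0.743. The Jun, Egr3 and Dusp6 sites lay 694 bp, 862 bp and 312 bp from a start of the comprehensive annotation. From the nearest start of the basic annotation, the Jun, Klf4, Btg2 and Dusp6 sites lay 1382, 1906, 1435 and 1358 bp away, and the Egr3 site 2287 bp. Of all coding-exon sites 15.7% lay up to 2000 bp from such a start.

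Genes of the postsynaptic side held sites in 15 of 65 (23.1%, 15.5 per 100 kb), with medians of 0.702 and 0.568. The tallest were in Adgrb3, an adhesion receptor gene (1.75 and 1.44), Tiam1, an activator of Rac (1.67 and 1.45, and 1.61 and 1.52 in a further site), and Sipa1l3 (1.51 and 1.15). Slitrk1 and Dlgap3, whose products organise synapses, had 1.31 and 1.24, and 1.02 and 1.03. The Slitrk and Lrrtm genes encode adhesion proteins mostly in 1 long coding exon, and several of them held more than 1 site. The 5 sites of Slitrk2 were low, with medians of 0.203 and 0.220. Glutamate and GABA receptor genes held sites in 9 of 44 (20.5%, 11.5 per 100 kb), with Gabbr2 (0.847 and 0.833) and Grik5 (1.02 and 0.652) among the tallest. Grm5, a metabotropic receptor gene, had 3 sites between 0.588 and 0.801.

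Developmental transcription factor genes held sites in 21 of 209 (10.0%, 15.3 per 100 kb). Sox8 had 2.48 and 2.91 in its last coding segment, Pou1f1, a factor of the pituitary, had 2.43 and 1.90, and Sox5 had 1.98 and 1.36. Neurog2, a proneural factor gene, held a site in its single coding exon (1.13 and 1.03). Zinc finger genes held sites in 51 of 529 (9.64%, 6.37 per 100 kb), with Zfp771 (5.99 and 4.85), the red cell factor gene Klf1 (4.13 and 4.37) and Zfp219 (3.87 and 4.27) the tallest. Chromatin regulators held sites in 29 of 152 (6.66 per 100 kb), led by Ino80c of the INO80 remodelling complex (4.76 and 4.35), the corepressor gene Ncor1 (3.51 and 2.29) and the remodeller gene Chd7 (2.73 and 2.15). Only the developmental factor genes among these 3 lists were well above the density of all genes.

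In voltage-gated and related channel genes 34 of 183 held a site (18.6%, 9.85 per 100 kb), led by Cacna1a. Ano8 (1.86 and 1.89) and Trpm4 (1.76 and 1.42) followed. Among the receptors of Notch, Wnt and lipoproteins the count was 15 of 62 (10.8 per 100 kb), led by Notch4, with Notch3 at 1.81 and 2.27 and the Wnt receptor gene Fzd7 at 1.94 and 1.64. Axon guidance genes held sites in 16 of 84 (8.17 per 100 kb), with Ntng1 (2.29 and 2.14), Dscam and Robo3 (1.61 and 1.17) the tallest. Cadherin genes outside the protocadherin clusters held 18 sites in 10 of 47 genes (9.37 per 100 kb), with Celsr3 at 1.42 and 1.27. Of the 18 sites, 5 were in Pcdh10 and matched 1 peak of replicate 2. The clustered protocadherin genes had sites in 0 of 56. Release machinery of synaptic vesicles held sites in 10 of 73 (6.55 per 100 kb), and the tallest was in Unc13a, which primes vesicles for fusion (3.68 and 3.31).

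The cytoskeletal list of spectrins, ankyrins and microtubule-associated proteins held 46 sites in 13 of 58 genes (16.4 per 100 kb), with medians of 0.571 and 0.526. Map1a and Syne1 supplied 25 of these 46 sites, and without those 2 genes, an alternative chosen after seeing the data, the density was 8.53 per 100 kb. Motor proteins held sites in 24 of 104 (5.81 per 100 kb), led by Myo3b (4.38 and 3.70). The solute carriers were close to the overall density (32 of 385, 6.60 per 100 kb), and the collagen and matrix genes were below it (12 of 79, 3.64). In the solute carriers the tallest were Slc1a6, a neuronal glutamate transporter (4.31 and 2.93), and Slc4a5, a bicarbonate transporter (4.17 and 2.97). RNA-binding genes held sites in 16 of 144 (8.64 per 100 kb), with Tnrc6c of the microRNA silencing machinery at 3.97 and 3.27.

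Among the glial and endothelial markers, in the astrocyte list Sox9 alone of 16 genes (6.25%, 9.66 per 100 kb) held sites, and the tallest had 0.715 and 0.672. The myelin list gave Gpr37 alone of 16 (6.25%, 6.43 per 100 kb, heights 0.577 and 0.510), and the microglia and endothelial list 0 of 18. That last list had only 33.3 kb of eligible CDS, so its count of 0 says little. It did not include Spi1, Notch4, Kank3 or Rasip1, which held sites. Olfactory and vomeronasal receptor genes, which nasal neurons express, held sites in 2 of 453 (0.485 per 100 kb), Olfr95 (0.420 and 0.368) and Vmn2r45 (0.223 and 0.265). The Vmn2r45 sequence had 52 further copies in the genome, so reads there may not be placed uniquely. Keratin and epidermal genes, which are not known for expression in brain, held sites in 8 of 89 (8.99%, about the 8.72% of all genes, and 11.4 per 100 kb), with Krt26 (2.88 and 1.96), Krt88 (1.67 and 1.90) and Krt40 (1.40 and 1.65) the tallest. None of these 3 keratin genes had a promoter peak in either replicate. Of 2 histone genes with eligible CDS, Hist1h2be held a site (1.59 and 1.47) with 14 further copies.

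**Figure D5:**
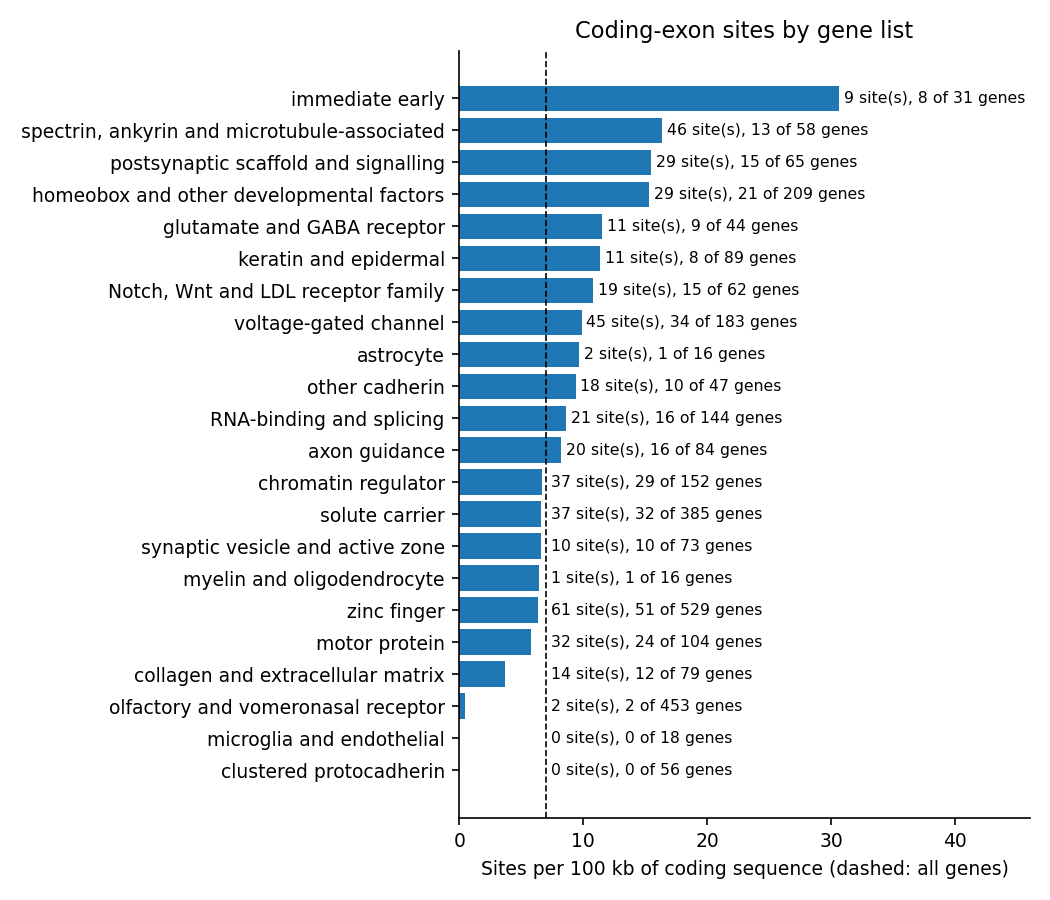
Coding-exon sites per 100 kb of eligible coding sequence (x axis) in the gene lists described, with the number of sites and of genes beside each bar and all genes as the dashed line at 6.96. Immediate early genes stand at 30.6 (9 sites in 29.4 kb), the cytoskeletal list at 16.4 (8.53 without Map1a and Syne1) and developmental factors at 15.3, and olfactory and vomeronasal receptors at 0.485.

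Several genes held a series of sites. Map1a, which encodes a dendritic microtubule-associated protein, had 13 sites, mostly in its coding segment of 8104 bp. Their heights lay between 0.354 and 0.512 in replicate 1 and between 0.284 and 0.517 in replicate 2, so all were below the median of the coding-exon sites, and they matched 8 peaks of replicate 2. Syne1, a giant nuclear envelope protein of the spectrin family with 145 coding segments, had 12 sites in 12 of them, from 0.282 to 1.99 in replicate 1. Tchh, a hair follicle protein, had 7 sites in a segment of 4659 bp (0.440 to 1.42 in replicate 1 and 0.252 to 1.29 in replicate 2). Its tallest site held 11 and 8 footprints.

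Irs1 had 6 sites between 0.374 and 0.853 in replicate 1, and in none of them were footprints found in both replicates. Nfkb2, a subunit of the NF-kappa-B factors, also had 6, of which the tallest reached 2.66 and 2.65 and held 5 footprints in both. Pcdh10 (adhesion), Slitrk2 (synapse organisation) and Sptbn4 (spectrin of the axon initial segment) had 5 each. All 5 Pcdh10 sites matched the same peak of replicate 2. The 5 Slitrk2 sites were low, at 0.184 to 0.276 in replicate 1 and 0.161 to 0.291 in replicate 2. They matched 3 peaks of replicate 2, and only 1 of them held a footprint in both replicates. In all, 68 sites overlapped another site and 103 shared their peak of replicate 2, so the sites are not independent measurements.

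The sites that differed most between the replicates after scaling were the following. Higher in replicate 1, Myom3 had 0.820 and 0.291, Dnhd1 1.19 and 0.465, and Cep250 1.32 and 0.542. In the other direction were 2 neighbouring sites of Ighmbp2 (0.0853 and 0.207, then 0.105 and 0.207) and a site of Ccdc162 (0.295 and 0.588). Just inside the limit of 1000 bp lay sites in Apoa5 (1005 bp) and Neurog2 (1006 bp), and just outside it peaks in Fam110c (1000 bp) and B630019K06Rik (999 bp). At the limit of 50% CDS, sites in Gipr and Entpd2 had exactly 50%, and peaks in Parvg (49.8%) and Xndc1 (49.7%) fell outside.

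The tissue label was checked with promoter peaks of marker genes, present in both replicates. They were found for 5 of 5 excitatory neuron markers, for 3 of 4 of dentate granule cells, 2 of 3 of CA1, 4 of 4 of CA2 and CA3, and 2 of 3 of inhibitory neurons. Astrocyte and oligodendrocyte markers had them in 4 of 5 each, microglia and endothelial markers in 1 of 3 each, and Alb, Myod1, Cd3e and Hbb-bs of other tissues in 0 of 4. Such a peak was also present in both replicates for 67.5% of the 19548 eligible protein-coding genes. These small counts therefore do not show by themselves which cell types the pools held. Accessibility of a site in few cells and weak accessibility in many cannot be told apart.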

How the data were processed

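DNase-seq of 2 hippocampus samples was used as deposited. Per the labels the build is mm10, while aligner and callers were not given in the sources used here. The files that the authors deposited for a sample are 2 peak lists with a height per peak (unit: signal, scale not given), a file of false discovery rates of the local cut rate (a q-value, 0.05 or less) and footprints that all carry 0.01, taken as the p-value limit of the call, so they were not ranked. The longer peak list (false discovery rate up to 0.05) was used and the shorter (0.001) as an alternative. Total cuts per sample were not analysed here, so no counting interval is given, and the number of replicates limits the precision.

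A site's height in replicate 2 is that of the peak with the largest overlap (1 bp or more). CDS, exons and start sites came from GENCODE M21. Position was read from 1 transcript per gene (appris principal first, then the longest CDS), and a footprint belonged to a site that held its midpoint. Motifs (NRF1, SP/KLF, EGR, ETS, CRE, AP-1, RFX, YY1, MEF2, REST, CTCF, E-box, ZFX, homeodomain) were consensus matches on both strands in 200 bp. Further copies were blastn 2.17.0 matches of at least 90% identity over 80% of the length. Tools were numpy 2.4.6, pandas 2.3.3 and pysam 0.24.0 in Python 3.11.15, bedtools 2.31.1, samtools 1.23.1 and matplotlib 3.10.9, and the interval, distance and motif functions were tested on simulated data.

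The members and lists were chosen with earlier results of these data known. Genes named are the 12 tallest sites, the 8 genes with the most sites, the 4 sites with the most footprints found in both replicates, up to 3 tallest genes per list, the 3 sites most unequal in each direction, the 5 tallest with CTCF, the 3 farthest from start sites and those beside a threshold; other members of the immediate early and postsynaptic lists were named after their values were seen, and Lrrc41, Lrrc47 and Grid2ip, which symbol patterns had caught, were taken out. Some genes and a list that these rules take are not reported here. With 2 samples of 1 group there was no test and no p-value. Alternatives changed the overlap, peak list, CDS share, start-site distance and set, transcripts, base replicate, footprint rule, motif window, segment length and copies, and left out each replicate.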

Additional observations from a re-analysis of the deposited data

How the results depend on the processing

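The values set against each alternative were 2035 sites in 1706 genes, a median height of 0.720, a log2 ratio of median heights of 0.0272, 85.1% of sites with a footprint, 33.4% in coding segments of at least 500 bp (of all 2035), a CpG ratio of 0.452 and 5.58% with CTCF, as means of the 2 replicates. With 75% of the peak in CDS the values were 1255 sites in 1081 genes, a log2 height ratio of −0.0524, 82.9%, 50.4%, 0.494 and 5.38% in the order above. With the shorter peak lists they were 1039 sites, 927 genes, height 1.08, 92.5%, 32.0%, 0.476 and 8.52%. With 50% of each peak overlapping they were height 0.817, log2 ratio 0.0714, 90.8%, 29.3%, 0.447 and 6.96%. More than 2000 bp from start sites they were 86.0%, 28.2%, 0.433 and 5.80%. With start sites of the comprehensive annotation, an alternative chosen after seeing the data, 1626 sites remained, with 84.7%, 35.5% and 0.446. With replicate 2 as the base the values were 33.0% in long segments, 0.4503 and 5.80%, with appris principal transcripts 34.1% and 0.452, and without sites that have copies 85.4% with a footprint and 0.454. Any overlap with a footprint gave 85.4%, and segments of at least 300 bp held 42.2%. Leaving out 1 replicate, so that no sharing was asked for, gave 2771 to 3335 sites, a height of 0.568 to 0.571, log2 ratios of −0.0165 and −0.0163, 74.1% to 76.7% with a footprint, 32.1% to 32.8% in long segments, CpG ratios of 0.434 to 0.454 and CTCF shares of 3.75% to 4.66%. The log2 height ratio thus changed sign in 3 alternatives and gives no direction. For the CpG ratio and the CTCF and long-segment shares, both replicates were read at the same sites. Their spread is therefore small, and slight moves exceed it. Of 83 alternative values 34 moved by less than the spread between replicates (by less than 1.5 times for counts), 46 moved by more and 3 changed sign. The cause of the others was not tested, apart from the smaller or larger number of peaks that each rule leaves. No paired analysis was possible because the 2 samples form 1 group.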

Other observations

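Sites also lay in genes without a promoter peak. Of the 2035 sites 346 lay in genes with no peak within 1000 bp of a protein-coding start site in either replicate, and 1608 in genes with such a peak in both. The median heights were 0.768 and 0.681 in the 346 and 0.755 and 0.678 in the 1608 (replicates 1 and 2). A CpG ratio above 0.6 was found in 41.0% of the former and 28.1% of the latter, and a CTCF motif in 6.94% and 4.98%.

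The 124 sites without a footprint in either replicate were low and short, with medians of 0.361 and 0.352 and a length of 166 bp. Of these, 24.2% lay within 2000 bp of a start site (15.7% of all coding-exon sites), 34.7% had a CpG ratio above 0.6 (31.0% of all), and a CTCF motif was present in 1 (5.45% of all).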
